A study of Rattus norvegicus with 20 samples.

Results

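Irg1 and 8 enzymes of the tricarboxylic acid (TCA) cycle and its cytosolic branch were followed in cultured rat microglia, the brain's own macrophages. The genes were chosen by name, as the rows IRG1, CS, ACO1, IDH1, IDH2, IDH3A, OGDH, FH and MDH2 of the deposited expression table. All 9 were present among its 17310 gene symbols. Irg1 makes itaconate in the mitochondria by removing the carboxyl group from cis-aconitate, an intermediate between citrate and isocitrate. Its induction is a known mark of macrophages that sense bacterial products, and itaconate is known to inhibit succinate dehydrogenase. The TCA cycle enzymes oxidise the carbon of acetyl-CoA and pass electrons to the respiratory chain, while the cytosolic forms of aconitase and isocitrate dehydrogenase handle citrate that has left the mitochondria.

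The study compared cultured microglia after an opioid with microglia after agonists of Toll-like receptors (TLR), the innate sensors of microbial products. Cells were taken from perfused brains, without the cerebellum, of male Sprague-Dawley rats aged 21 days. They were selected through CD11b, an integrin on the surface of myeloid cells, and grown in serum-free medium for 5 days before the agent was added in a 50% medium change. The control group received PBS. The other groups received morphine at 1 uM, the TLR4 agonist LPS at 1 ng/mL, the TLR2 and TLR1 agonist PAM3CSK4 at 1 ng/mL, or zymosan, a yeast cell wall preparation that acts on TLR2 and dectin-1, at 100 ug/mL. Each of the 5 groups had 4 libraries, and all shared the strain, sex, age, isolation and culture. How long the cells were treated is not stated in the labels, and the morphine dose of 10 uM that they also mention was not analysed here. The labels do not tell whether the 4 libraries of a group are separate cultures or animals. The p-values then describe only how these libraries vary, which may be technical. The cells were cultured before treatment, which limits them as a model of microglia in tissue.

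Expression was given as FPKM, the fragments of a gene scaled by transcript length and by the mapped fragments of the library, so that levels can be compared between genes. The low values fell on whole multiples of a step, a read or a fixed fraction of one, which gave a relative sequencing depth between 0.558 and 1 across the 20 libraries. All 10 microglia markers were above 0 in every PBS library, with a summed level of 2430 to 3246 FPKM there, 2317 to 3102 after morphine, 1574 to 2377 after LPS, 1609 to 2179 after PAM3CSK4 and 1798 to 2465 after zymosan. Tyrobp, an adaptor of myeloid receptors, led this sum, with 1349 ± 371 FPKM under PBS and 1156 ± 364 after LPS (SD, n = 4 each), and the single markers did not move alike. Cx3cr1, the fractalkine receptor, averaged 68.7 FPKM under PBS and 2.33, 2.64 and 4.64 after LPS, PAM3CSK4 and zymosan, and P2ry12, a purine receptor, 4.44 and 0.18, 0.41 and 0.26 FPKM, with a lowest library at 0 in each agonist group, as for Cx3cr1 after PAM3CSK4. Trem2, a lipid receptor, averaged 113 FPKM under PBS and 21.0, 19.7 and 32.6 in those groups, and Csf1r, the receptor for the growth factor CSF1, 512 and 106, 92.7 and 144. Aif1, a calcium-binding protein of these cells, averaged 324 FPKM under PBS and 394, 360 and 410. Summed markers of other cells reached at most 4.52 FPKM for astrocytes, with 2 of 6 at 0 in every library, 18.2 for the oligodendrocyte lineage with 0 of 7 at 0, 4.67 for neurons with 3 of 5 at 0, 20.1 for endothelial and mural cells with 1 of 5 at 0, and 5.38 for other leukocytes with 3 of 5 at 0. The oligodendrocyte lineage sum was 10.1 to 18.2 FPKM under PBS and 2.60 to 13.0 in the agonist groups. These levels and sums move with the agonist comparisons, and their part in the results was not tested. In these bulk samples, fewer cells of a type and less RNA per cell cannot be told apart. A set of 7 libraries, namely replicate 1 of every group, Morphine replicate 2 and LPS replicate 2, stood apart from the other 13 on the first principal component after group means were removed, which held 63.2% of that variance. Results that rest on these libraries are given with and without them. The set was chosen from these same data, so p-values found without it, or with a term for it, may be too small.

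Irg1 was low under PBS and abundant after each TLR agonist. The symbol IRG1 is a synonym of both Acod1 and Ifi27 in the RefSeq gene table of assembly GRCr8. Ifi27 had a row of its own here, between 175 and 399 FPKM, and Acod1 had none, so the row was taken as Acod1, the itaconate enzyme. Irg1 read 5.90, 7.02, 2.68 and 7.69 FPKM in PBS libraries 1 to 4. It read 105, 58.6, 161 and 177 FPKM after LPS. It read 36.2, 108, 63.6 and 89.6 FPKM after PAM3CSK4, and 49.0, 104, 79.4 and 147 FPKM after zymosan. Every agonist library lay above every PBS library, and the lowest library of each agonist group belonged to the set of 7. The recovered reads of Irg1 ran from 34 to 3069 per library, up to 1 factor common to all libraries. PBS libraries 1 to 4 held 121, 169, 36 and 124 of them. The protocol names no molecular identifiers, and such counts speak for counting error only.

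Group means of Irg1 were 5.83 ± 2.22 FPKM under PBS, 125 ± 54.2 after LPS, 74.2 ± 31.2 after PAM3CSK4 and 94.7 ± 41.3 after zymosan (SD, n = 4 each). Differences were tested with limma on log2(FPKM + 1), a scale that understates changes of low genes, and were called at a Benjamini-Hochberg adjusted p under 0.05 over 8858 genes, those that reached 1 FPKM in 4 or more libraries. Irg1 rose by 4.16 (SE 0.47) on the log2 scale after LPS, with an adjusted p of 1.72e-06. After PAM3CSK4 it rose by 3.43 (SE 0.47, adjusted p = 1.74e-05), and after zymosan by 3.77 (SE 0.47, adjusted p = 1.08e-05). Of the genes tested, 99.8%, 99.7% and 99.8% had a lower difference than Irg1. In the 13 libraries outside the set of 7 the differences were 4.74, 3.76 and 4.08, also called.

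**Figure D1:**
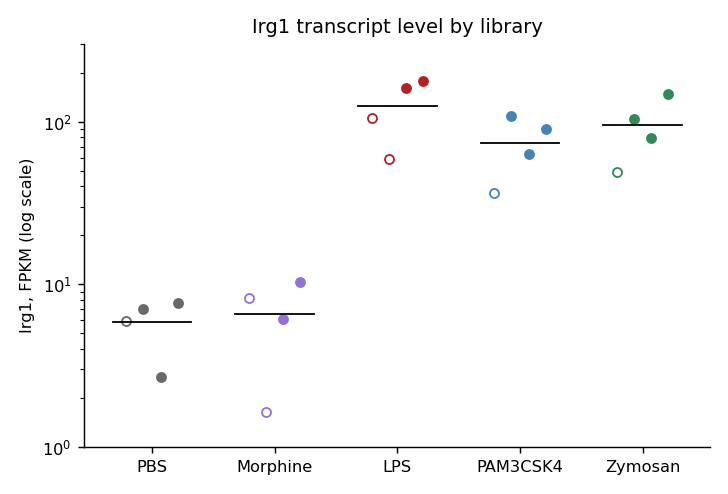
Irg1 level in FPKM (log axis) in each of the 20 libraries by treatment group. Each point is 1 library, open points are the 7 libraries that stood apart, and the black line is the group mean of 4 libraries. PBS and morphine libraries lie between 1.65 and 10.3 FPKM and agonist libraries between 36.2 and 177 FPKM.

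No difference in Irg1 between the 3 agonists was called. The means were in the order LPS above zymosan above PAM3CSK4, and the ranges overlapped. The PAM3CSK4 minus LPS difference was −0.73 on the log2 scale, with a 95% interval of −1.71 to 0.24 and an adjusted p of 0.988. Zymosan minus LPS was −0.39 (interval −1.36 to 0.59, adjusted p = 0.770), and zymosan minus PAM3CSK4 was 0.35 (interval −0.63 to 1.32, adjusted p = 1). These intervals leave room for differences of either sign.

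Morphine gave no call for Irg1. The morphine libraries read 8.20, 1.65, 6.11 and 10.3 FPKM, a mean of 6.57 ± 3.71 (SD, n = 4), and their range covered that of the PBS libraries. The log2 difference from PBS was 0.04, with a 95% interval of −0.94 to 1.01 and an adjusted p of 0.987 (limma). The interval does not show that the levels were equal, since it reaches about 1 log2 unit in each direction.

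The region just before the Acod1 start is shown because Irg1 was the member with the highest rise. It covers the 250 bases on the + strand of chr15:86286289-86286538 in RefSeq GRCr8, which is not the build rn6 named in the submitters' processing notes. Capitals mark GGAAATTCC, a match to the 9 letters GGAANTTCC of an NF-kB site, and TATAAA, the letters of a TATA box.
Acod1: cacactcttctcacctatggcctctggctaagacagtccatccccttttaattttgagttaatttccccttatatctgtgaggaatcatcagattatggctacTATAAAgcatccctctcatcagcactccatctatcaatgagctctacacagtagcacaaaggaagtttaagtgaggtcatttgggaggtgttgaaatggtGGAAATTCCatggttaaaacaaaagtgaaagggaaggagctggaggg
The first base of GGAAATTCC lay 47 bases and that of TATAAA 147 bases before the start. GGAANTTCC occurred on either strand in 0.669% and TATAAA in 12.9% of 33469 promoter windows of the same length, and both motifs were chosen after the sequence was read. Also searched on both strands were a looser NF-kB motif (GGG, any 5 bases, CC), the interferon-stimulated response element (GAAA, any 2 bases, GAAA), AP-1 (TGANTCA) and NRF1 (GCGCA, any base, GCGC). None of these letters was in this window, and they were in 42.3%, 3.41%, 6.34% and 3.75% of all windows. The Acod1 window held 0 CpG and 42.4% G or C bases, beside a median of 5 CpG and 51.2% over all windows. A match is a description of letters and not evidence of binding.

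Among the TCA cycle members every call was lower. After LPS, 5 of the 9 members were called, 1 higher and 4 lower, beside 32.4% of all genes tested, with 5.02% higher and 27.3% lower. After PAM3CSK4, 4 were called, 1 higher and 3 lower, beside 28.2% of all genes, with 5.62% higher and 22.6% lower. After zymosan, 4 were called, 1 higher and 3 lower, beside 18.9%, with 4.66% higher and 14.2% lower. The higher member was Irg1 each time, and Idh2, Idh3a and Mdh2 were lower each time, with Cs added after LPS. In each agonist comparison 4 members had groups that did not overlap with PBS, namely Irg1, Idh2, Idh3a and Mdh2, beside 31.5%, 30% and 26.1% of all genes after LPS, PAM3CSK4 and zymosan. The 3 agonist comparisons share the same 4 PBS libraries and are given side by side.

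The median gene was lower after the agonists in these data, and the members have to be read against that. Over all genes tested the median log2 differences for LPS, PAM3CSK4 and zymosan were −0.37, −0.27 and −0.18, and those of the members were −0.61, −0.49 and −0.33. When each library was divided by its median ratio to the geometric mean of the genes present in all libraries, the all-gene medians moved to within 0.01 of 0 and the share of calls that were higher went from 15.5% to 47.7% after LPS, from 20% to 47.3% after PAM3CSK4 and from 24.7% to 47.5% after zymosan. Under this rescaling 3 members were called after each agonist, Irg1 higher and Idh2 and Idh3a lower. Of the 8858 genes tested, 2293, 2260 and 1545 were called under it after LPS, PAM3CSK4 and zymosan. The calls of Mdh2 and Cs were lost.

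**Figure D2:**
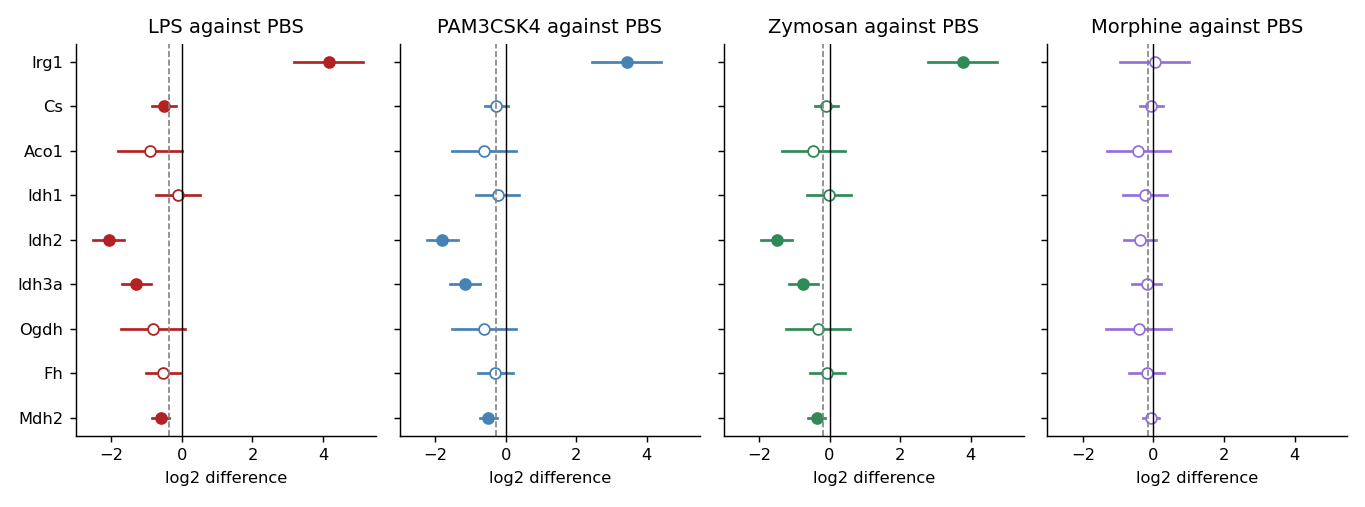
Log2 difference from PBS (horizontal axis, limma on log2(FPKM + 1)) of the 9 members after each agent, with 95% intervals. Filled points were called at adjusted p under 0.05, the dashed line is the median of all 8858 genes tested and the solid line is 0. Irg1 lies between 3.43 and 4.16 after the agonists, Idh2 between −2.07 and −1.49, and no member is called after morphine.

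Idh2, the mitochondrial isocitrate dehydrogenase that uses NADP+ and supplies NADPH there, had the largest fall of the 9. It read 75.1, 96.3, 88.7 and 83.1 FPKM in PBS libraries 1 to 4 and 21.6, 18.0, 19.1 and 19.8 FPKM after LPS. It read 17.1, 30.8, 26.7 and 23.1 FPKM after PAM3CSK4 and 29.2, 33.1, 37.3 and 21.6 FPKM after zymosan. The highest agonist library was thus under every PBS library. Means fell from 85.8 ± 8.95 FPKM to 19.6 ± 1.51, 24.4 ± 5.84 and 30.3 ± 6.65 FPKM (SD, n = 4 each). On the log2 scale Idh2 fell by 2.07 (SE 0.21, adjusted p = 6.60e-07) after LPS, by 1.80 (adjusted p = 3.54e-06) after PAM3CSK4 and by 1.49 (adjusted p = 4.94e-05) after zymosan. Of the genes tested, 2.04%, 2.36% and 2.33% had a lower difference. The fall remained called under rescaling, at −1.65, −1.49 and −1.28.

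The window before the Idh2 start is shown beside that of Acod1 as the one of the member with the largest fall. It covers 250 bases of the − strand, chr1:143467249-143467498 in GRCr8. Capitals mark matches to the looser NF-kB motif on either strand.
Idh2: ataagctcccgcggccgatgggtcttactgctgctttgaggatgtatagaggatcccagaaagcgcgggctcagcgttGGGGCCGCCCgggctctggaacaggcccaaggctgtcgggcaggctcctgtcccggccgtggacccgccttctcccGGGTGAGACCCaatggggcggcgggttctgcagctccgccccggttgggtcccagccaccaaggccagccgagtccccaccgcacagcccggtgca
Matches began 172 and 96 bases before the start on the gene strand, and a further match on the other strand overlapped the latter. This window held 20 CpG and 68.8% G or C bases, against 0 CpG in the Acod1 window. A window was given for 8 of the 9 members, and the 7 TCA cycle members among them held between 10 and 26 CpG. The looser NF-kB motif was found in 6 of these 7, with Fh the exception, and in 42.3% of all windows. Its fixed letters are all G or C. The 6 windows with a match held 58.8% to 68.8% G or C bases, beside 51.2% in the Fh window and in the median window. Windows of equal G and C content were not compared, so no excess of the motif is read from these counts. The window of Idh3a is not shown.

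Idh3a encodes the catalytic subunit of the NAD+ dependent isocitrate dehydrogenase, the form that drives the cycle itself. PBS libraries read 27.1, 38.0, 40.3 and 34.2 FPKM and LPS libraries 9.48, 13.6, 15.3 and 16.7 FPKM. PAM3CSK4 libraries read 11.6, 18.5, 16.1 and 14.6 FPKM and zymosan libraries 18.2, 21.7, 23.4 and 18.0 FPKM. No agonist library reached the lowest PBS library. Idh3a fell by 1.29 (SE 0.20, adjusted p = 6.20e-05), 1.15 (adjusted p = 0.00023) and 0.75 (adjusted p = 0.0117) on the log2 scale after LPS, PAM3CSK4 and zymosan. Under rescaling it was still called, at −0.88, −0.85 and −0.54.

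The other subunits of the same complex had smaller differences. Idh3b, a structural and regulatory subunit, was not called after any agonist, with log2 differences of −0.19, −0.18 and −0.04 after LPS, PAM3CSK4 and zymosan. Idh3g, the regulatory gamma subunit, was called after LPS (−0.52, adjusted p = 0.00525) and PAM3CSK4 (−0.37, adjusted p = 0.0435) and not after zymosan (−0.27, adjusted p = 0.174). Under rescaling it was not called, with −0.093 after LPS (adjusted p = 0.638) and −0.057 after PAM3CSK4 (adjusted p = 0.797). Within each library the ratio of Idh3a to Idh3b in FPKM, which no library scaling can move, was 0.561 ± 0.0904 under PBS, 0.250 ± 0.0396 after LPS, 0.276 ± 0.0369 after PAM3CSK4 and 0.335 ± 0.0207 after zymosan (SD, n = 4 each). The highest agonist ratio, 0.359, was under the lowest PBS ratio of 0.444. Such a ratio shows unequal change of the pair, and not that Idh3b held still.

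Idh1, the cytosolic NADP+ isocitrate dehydrogenase, was not called in any comparison. It read 66.5, 91.9, 97.8 and 119 FPKM under PBS and 76.4, 46.4, 119 and 125 FPKM after LPS, with 54.1 to 104 FPKM after PAM3CSK4 and 66.8 to 110 FPKM after zymosan. The groups overlapped throughout. Log2 differences from PBS were −0.11 (95% interval −0.72 to 0.51), −0.23 (−0.85 to 0.39) and −0.01 (−0.63 to 0.61), and under rescaling they were above 0, at 0.32, 0.08 and 0.20. The ratio of Idh2 to Idh1 in a library was 0.946 ± 0.189 under PBS, 0.248 ± 0.111 after LPS, 0.315 ± 0.0947 after PAM3CSK4 and 0.339 ± 0.101 after zymosan (SD, n = 4 each). All 12 agonist libraries, at 0.158 to 0.445, lay below the PBS minimum of 0.698, so the mitochondrial and cytosolic NADP+ enzymes changed unequally.

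**Figure D3:**
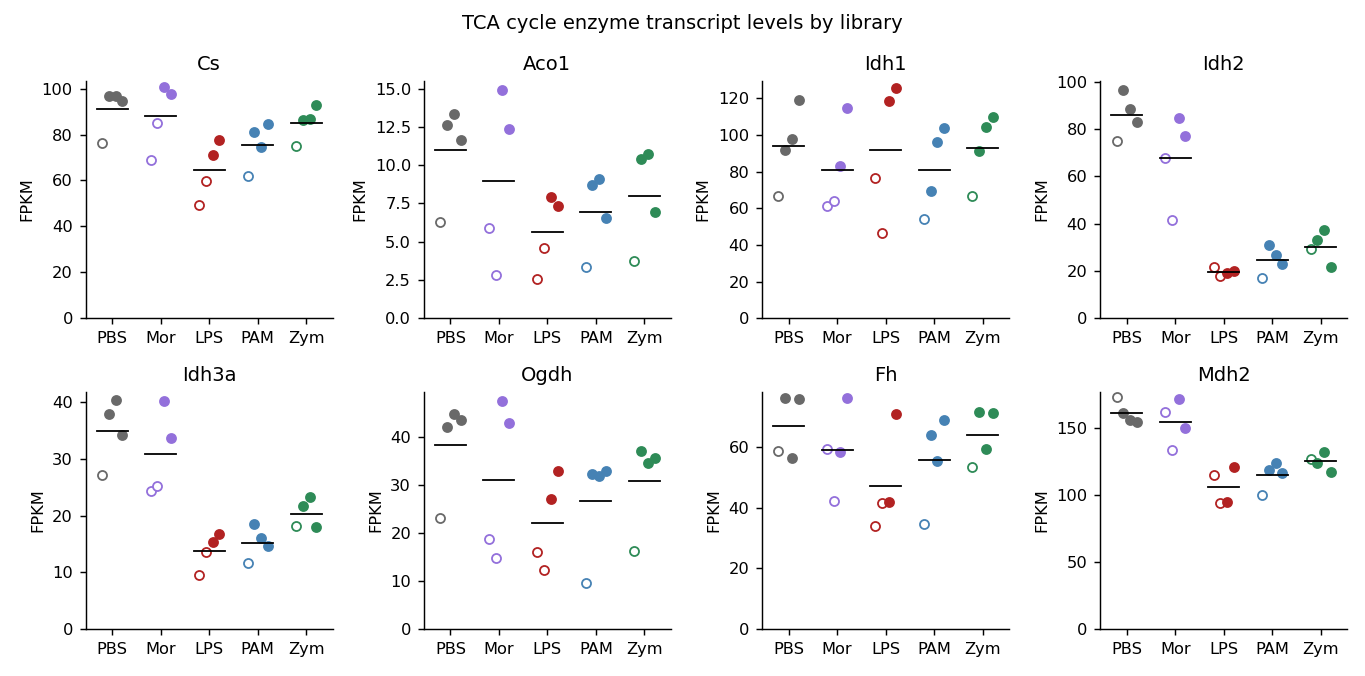
FPKM of the 8 TCA cycle members in each library by group (Mor, morphine; PAM, PAM3CSK4; Zym, zymosan). Each point is 1 library, open points are the 7 libraries that stood apart, and the line is the mean of 4. Idh2, Idh3a and Mdh2 separate the agonist groups from PBS, while the open points lie low for Ogdh and Aco1 in every group.

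Mdh2, the mitochondrial malate dehydrogenase that regenerates oxaloacetate, was the most abundant member under PBS. Its PBS libraries read 173, 162, 156 and 155 FPKM, and its LPS libraries 115, 94.4, 94.9 and 121 FPKM. PAM3CSK4 libraries read 99.9, 119, 124 and 116 FPKM and zymosan libraries 127, 124, 132 and 118 FPKM. The groups did not overlap with PBS, though the step was small beside that of Idh2. Mdh2 fell by 0.61 (SE 0.11, adjusted p = 0.00044), 0.49 (adjusted p = 0.00286) and 0.36 (adjusted p = 0.0297) on the log2 scale. Under rescaling the differences were −0.17, −0.18 and −0.16 and none was called. The zymosan call was also lost when any 1 of PBS 1, 2 or 3 or Zymosan 1, 2 or 4 was left out, with differences between −0.38 and −0.33.

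Cs, citrate synthase, which joins acetyl-CoA and oxaloacetate at the entry of the cycle, was called in the main fit only after LPS. It read 76.2, 96.9, 96.8 and 94.5 FPKM under PBS and 49.2, 59.7, 71.3 and 77.5 FPKM after LPS. LPS library 4 overlapped with PBS library 1. Cs fell by 0.51 (SE 0.16, adjusted p = 0.0182) after LPS. That call was lost under rescaling (−0.08, adjusted p = 0.677) and when PBS 2 (−0.48), PBS 3 (−0.48) or LPS 1 (−0.39) was left out. After PAM3CSK4, where libraries read 62.0 to 84.4 FPKM, the difference was −0.27 (adjusted p = 0.223), and it was called with the replicate number as a block (−0.27, adjusted p = 0.0255). After zymosan, at 75.0 to 92.7 FPKM, it was −0.09 (adjusted p = 0.778). Whether Cs responded differently to zymosan than to LPS was tested as the direct difference, 0.42 with a 95% interval of 0.09 to 0.74, which was not called (adjusted p = 0.506).

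Aco1 and Ogdh had lower means after each agonist and were not called. Aco1 is the cytosolic aconitase, which turns into an iron regulatory protein when it loses its iron-sulfur cluster. It read 6.31, 12.6, 13.3 and 11.6 FPKM under PBS and 2.53, 4.60, 7.94 and 7.35 FPKM after LPS, a log2 difference of −0.90 (95% interval −1.80 to −0.0020, adjusted p = 0.116). Ogdh is the decarboxylating subunit of the 2-oxoglutarate dehydrogenase complex. It read 23.1, 42.2, 44.9 and 43.5 FPKM under PBS and 16.0, 12.3, 27.1 and 33.0 FPKM after LPS, a log2 difference of −0.82 (95% interval −1.74 to 0.09, adjusted p = 0.155). In both genes the low libraries of every group were those of the set of 7, and the groups overlapped. After PAM3CSK4 the differences were −0.62 for Aco1 and −0.61 for Ogdh, and after zymosan −0.46 and −0.33.

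The set of 7 was chosen on deviations from the group means in these same data, so a smaller spread without it is largely built in. Adjusted p-values from the 13 other libraries may then be too small. Within the 13 other libraries the spread of both genes shrank. There Ogdh was 43.5 FPKM under PBS (42.2 to 44.9) and 30.1 after LPS (27.1 to 33.0), 32.4 after PAM3CSK4 (31.8 to 32.9) and 35.7 after zymosan (34.6 to 37.1), with no overlap with PBS. Its differences in these libraries, −0.53, −0.42 and −0.28, were all called (adjusted p = 0.000794, 0.00167 and 0.0208). Aco1 was called in them after LPS (−0.65, adjusted p = 0.0113) and PAM3CSK4 (−0.58, adjusted p = 0.0106), and not after zymosan (−0.40, adjusted p = 0.0638). The members called in these 13 libraries numbered 7 after LPS, 7 after PAM3CSK4 and 5 after zymosan. In the same libraries 4202, 4279 and 3533 of the 8858 genes tested were called. LPS had only 2 libraries there.

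Fh, fumarase, which hydrates fumarate to malate, was not called over the 20 libraries. It read 58.8, 76.2, 56.5 and 76.0 FPKM under PBS and 34.1, 41.7, 41.9 and 71.0 FPKM after LPS, where 1 library lay within the PBS range. The LPS difference was −0.54 with a 95% interval of −1.03 to −0.04, an unadjusted p of 0.0345 and an adjusted p of 0.0886. PAM3CSK4 (−0.29) and zymosan (−0.06) libraries overlapped with PBS too. Without LPS library 4 the LPS difference was −0.75 and was called, and without PAM3CSK4 library 1, which enters only the shared spread, the −0.54 was called. It was also called with library weights (−0.56, adjusted p = 0.00774) and with a term for the set of 7 libraries (−0.42, adjusted p = 0.0422), and not in the other 13 alone (−0.33, adjusted p = 0.215).

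Among the other enzymes of the cycle every call was lower. Of 15 other TCA cycle enzymes listed, 14 had a row and 13 passed the filter, since Ogdhl was listed at or near 0. Of these 13, 8, 7 and 4 were called lower with LPS, PAM3CSK4 and zymosan, and 0 were called higher. That is 61.5%, 53.8% and 30.8% of the list, beside 27.3%, 22.6% and 14.2% of all genes called lower. The list's median differences of −0.56, −0.60 and −0.47 compare with −0.37, −0.27 and −0.18 over all genes. Under rescaling 2, 2 and 1 of the 13 were called lower, beside 1200, 1191 and 811 of all 8858 genes. These rescaled counts are not read as a result about the list. Mdh1, the cytosolic malate dehydrogenase of the malate-aspartate shuttle, was lower each time under both scalings. It went from 144.7 ± 11.7 FPKM under PBS to 57.7 ± 5.25, 64.9 ± 6.66 and 73.0 ± 4.79 (SD, n = 4 each), a fall by 1.31, 1.15 and 0.98 on the log2 scale (adjusted p = 1.19e-06, 5.97e-06 and 6.33e-05).

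The differences of Mdh1 were larger than those of Mdh2. The ratio of Mdh1 to Mdh2 in a library was 0.900 ± 0.114 under PBS and 0.547 ± 0.0654, 0.565 ± 0.0277 and 0.583 ± 0.0423 after LPS, PAM3CSK4 and zymosan. Sdhb and Sdhd, subunits of succinate dehydrogenase, the enzyme that itaconate inhibits, and Suclg1, a subunit of succinyl-CoA ligase, were called lower after all 3 agonists. Sdhb fell by 0.56, 0.60 and 0.49 and Sdhd by 0.62, 0.67 and 0.58, and neither was called under rescaling. Sdha, the flavoprotein subunit of succinate dehydrogenase, was called after LPS (−0.99, adjusted p = 0.0321), and not under rescaling (−0.57, adjusted p = 0.0572). Suclg1 was called under rescaling after LPS, and not after PAM3CSK4 (−0.30, adjusted p = 0.107) or zymosan (−0.27, adjusted p = 0.203). After PAM3CSK4 the difference of Sdha, −0.82, was not called without the replicate block and was called with it (adjusted p = 0.0812 and 0.0113). The replicate number is not known to pair the libraries.

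**Figure D4:**
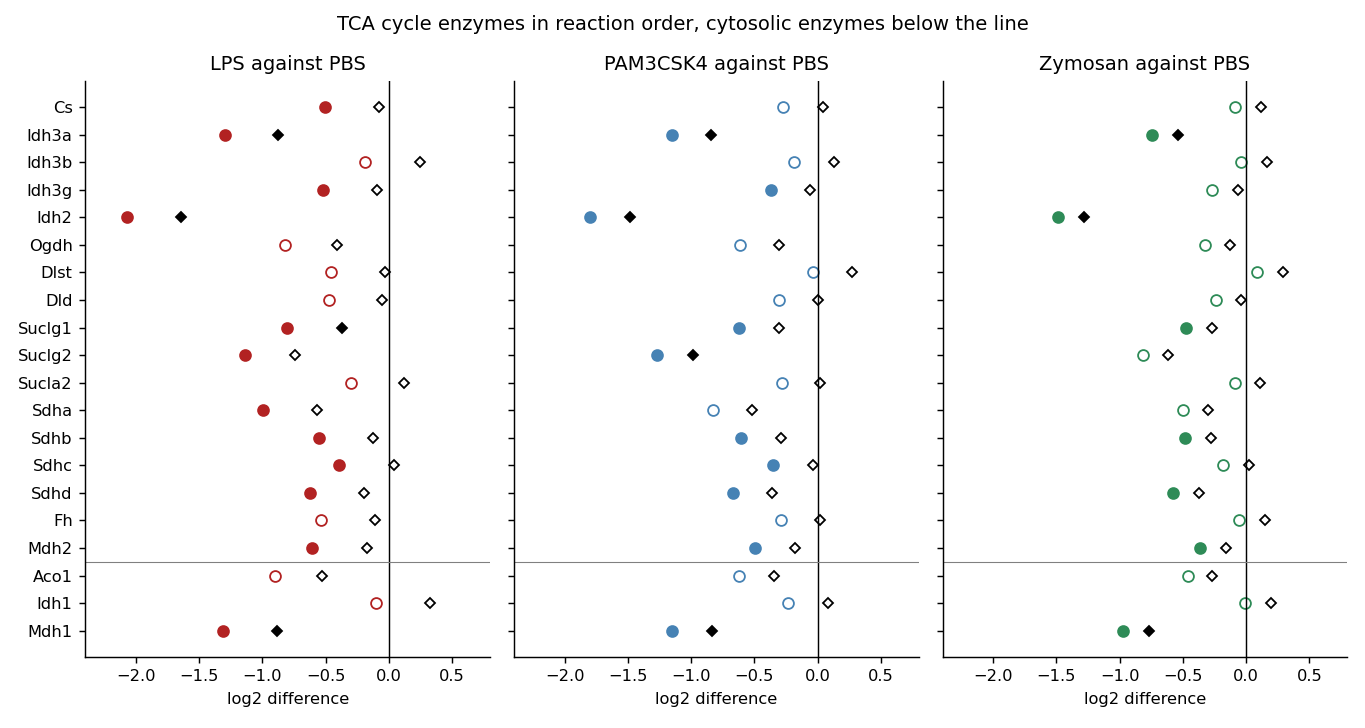
Log2 difference from PBS of 20 TCA cycle enzymes after each agonist, in the order of the reactions, with the cytosolic Aco1, Idh1 and Mdh1 under the line. Coloured circles are the FPKM as deposited, black diamonds the libraries after median-ratio rescaling, and filled symbols were called at adjusted p under 0.05. Idh2, Idh3a and Mdh1 are filled under both scalings in every panel.

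Set against the 8 TCA cycle members together, Irg1 took a larger part of the transcripts after each agonist. Irg1 as a percentage of the summed FPKM of the 8 other members was 1.17, 1.14, 0.451 and 1.25% in PBS libraries 1 to 4. It was 32.2, 20.1, 40.7 and 37.5% after LPS. It was 12.4, 25.4, 14.7 and 19.9% after PAM3CSK4 and 12.6, 21.8, 16.2 and 31.0% after zymosan. Means were 1.00 ± 0.370%, 32.6 ± 9.02%, 18.1 ± 5.79% and 20.4 ± 8.02% (SD, n = 4 each), and 1.22 ± 0.640% after morphine. Every agonist library lay above every PBS and morphine library.

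**Figure D5:**
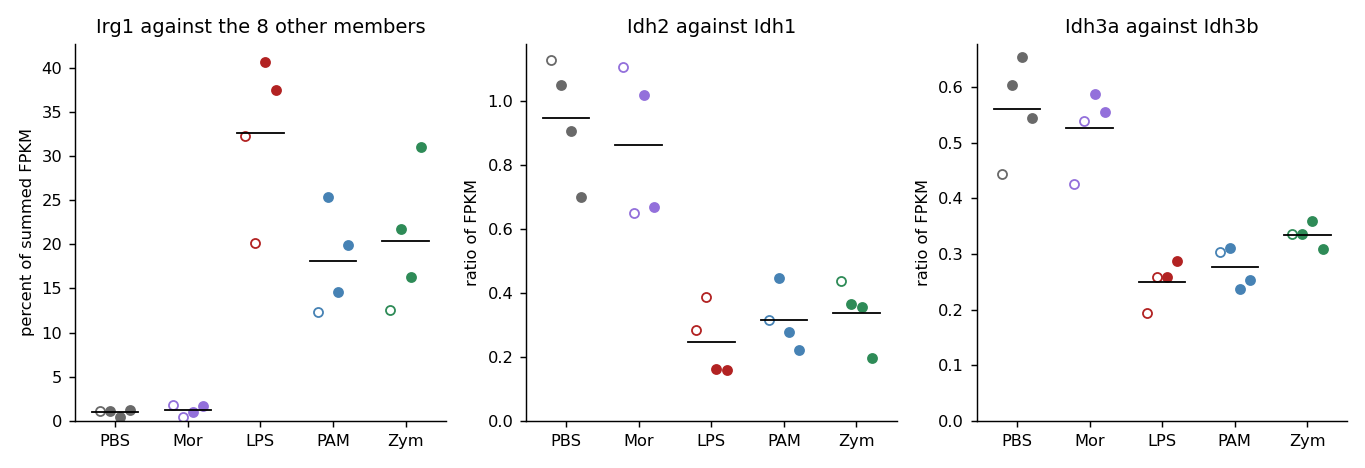
Ratios within each library by group (Mor, morphine; PAM, PAM3CSK4; Zym, zymosan): Irg1 as a percentage of the summed FPKM of the 8 other members, Idh2 to Idh1 and Idh3a to Idh3b. Points are libraries, open points the 7 libraries that stood apart, lines the means of 4. Agonist libraries lie at 12.4% to 40.7% in the Irg1 panel against at most 1.75% elsewhere, and below all PBS libraries in the other panels.

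No member was called after morphine, where 0% of all genes tested were called, with 104 genes and 0 members at an unadjusted p under 0.05 (limma). Of the members, 8 of 9 had a difference below 0, with a median of −0.19 beside −0.16 over all genes. Idh2 gave the smallest unadjusted p of the 9. It read 67.7, 41.6, 84.8 and 76.9 FPKM after morphine, a mean of 67.8 ± 18.8 (SD, n = 4), and overlapped with PBS. Its difference was −0.38, with a 95% interval of −0.82 to 0.06 and an adjusted p of 0.897. The 2 lower libraries, Morphine 1 and 2, were both in the set of 7. Rescaling or the other 13 libraries turned the sign for some members, so that no direction is read from these values.

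Between agonists, 0 of the 9 members were called. PAM3CSK4 against LPS called 0.0339% of all genes, with 343 genes and 0 members at an unadjusted p under 0.05 (limma). Zymosan against PAM3CSK4 called 0% of all genes, with 299 genes and 0 members at that p. Zymosan against LPS called 0.0903% of all genes, with 719 of 8858 genes at an unadjusted p under 0.05, among them 4 members, namely Cs, Idh2, Idh3a and Mdh2. Idh2 was 0.58 higher after zymosan than after LPS (95% interval 0.14 to 1.02, adjusted p = 0.494) and Idh3a 0.55 higher (95% interval 0.13 to 0.97, adjusted p = 0.494). In both, no zymosan library lay under the highest LPS library. Groups without overlap, in either direction, were found for 4.91% of all genes. For Idh2 the groups nearly touched, with 21.64 FPKM in the lowest zymosan library and 21.61 FPKM in the highest LPS library. The all-gene median of this comparison was 0.19.

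The routes around the cycle were examined through lists of genes. Of 12 tested genes of pyruvate entry, 2, 3 and 1 were called lower after LPS, PAM3CSK4 and zymosan and 0 higher. These were 16.7%, 25% and 8.33% of the list, below the 32.4%, 28.2% and 18.9% called of all genes. Pdk2, a kinase that inhibits pyruvate dehydrogenase, fell by 0.87, 0.90 and 0.57, and its relative Pdk3 fell by 1.11 and 1.45 after LPS and PAM3CSK4, with −0.57 not called after zymosan. Mpc2, a subunit of the mitochondrial pyruvate carrier, fell by 0.90 after PAM3CSK4 only (adjusted p = 0.0408). The medians of −0.60, −0.29 and −0.29 lay below those of all genes, −0.37, −0.27 and −0.18. Under rescaling 1 gene of this list was called higher and 2 lower, Pdk2 and Pdk3, after LPS and after PAM3CSK4, and 0 in either direction after zymosan, where Pdk2 was at −0.40 (adjusted p = 0.169). Mpc2 after PAM3CSK4 was then at −0.62 and not called (adjusted p = 0.236). Of all 8858 genes, 2293, 2260 and 1545 were called under rescaling after LPS, PAM3CSK4 and zymosan.

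Of 12 tested genes of citrate, glutamine and malate side routes, 5, 4 and 1 were called lower and 0 higher, which is 41.7%, 33.3% and 8.33% of the list beside 32.4%, 28.2% and 18.9% of all genes. Slc25a11, the oxoglutarate carrier of the malate-aspartate shuttle, fell by 1.06, 0.93 and 0.58. Got1, the cytosolic aspartate aminotransferase of the same shuttle, fell by 1.16 and 1.06 after LPS and PAM3CSK4, and its zymosan difference of −0.60 was not called. Got2, its mitochondrial partner, fell by 0.94 after LPS only. Pck2, mitochondrial phosphoenolpyruvate carboxykinase, fell by 0.77 and 0.48 after LPS and PAM3CSK4. The medians were −0.55, −0.61 and −0.30, and under rescaling 2, 1 and 1 genes were called higher and 3, 2 and 0 lower. All-gene counts under rescaling were 1093, 1069 and 734 higher and 1200, 1191 and 811 lower, of 8858. The calls of Slc25a11 and Got1 after LPS and PAM3CSK4 and of Got2 after LPS were also made there, and those of Slc25a11 after zymosan (−0.37, adjusted p = 0.0716) and of Pck2 were not.

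Among glycolysis genes every call was higher. Of 21 tested genes 6, 4 and 4 were called higher and 0 lower, with medians of 0.36, 0.27 and 0.32, and under rescaling 12, 9 and 8 were higher and 0 lower. The calls without rescaling made up 28.6%, 19% and 19% of the list, beside 32.4%, 28.2% and 18.9% of all genes. Of those all-gene calls 15.5%, 20% and 24.7% were higher. Under rescaling 1093, 1069 and 734 of all 8858 genes were called higher. Slc2a1, the glucose transporter GLUT1, rose from 35.7 ± 7.66 FPKM under PBS to 168 ± 57.9, 172 ± 52.5 and 153 ± 33.9 (SD, n = 4 each). Slc16a3, a lactate exporter, rose by 2.05, 1.13 and 1.21 on the log2 scale. Aldoa, aldolase, rose by 0.66, 0.56 and 0.51. Eno2, an enolase, rose by 0.90 after PAM3CSK4 and 0.79 after zymosan, and its LPS difference of 0.40 was not called.

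Itaconate is known to activate the transcription factor NRF2, and its listed targets were split. Of 15 tested, 2, 1 and 2 were called higher and 3, 2 and 1 lower after LPS, PAM3CSK4 and zymosan. That is 33.3%, 20% and 20% of the list beside 32.4%, 28.2% and 18.9% of all genes, shares near or below the background. Slc7a11, the cystine importer, rose from 4.55 ± 1.61 FPKM to 18.9 ± 2.71, 25.4 ± 5.49 and 19.2 ± 6.94 (SD, n = 4 each). Hmox1, haem oxygenase, rose by 0.87 after LPS and 0.93 after zymosan. Taldo1, an enzyme of the pentose phosphate pathway, fell by 0.67, 0.66 and 0.51, and Tkt, of the same pathway, fell by 0.64 after LPS. Under rescaling 3, 3 and 2 of the list were higher and 0 lower, so the falls of Taldo1 and Tkt were calls of 1 scaling only. That rescaling called 1093, 1069 and 734 of all 8858 genes higher.

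Genes of iron handling whose messages are bound by iron regulatory proteins, the other function of Aco1, were also listed. The list includes Ireb2, which itself encodes such a protein. Of 6 tested, 2 were called lower after each agonist and 0 higher, and under rescaling 2 were lower and 1 higher each time. The 2 of 6 without rescaling are 33.3% of the list, beside 32.4%, 28.2% and 18.9% of all genes. With rescaling 2293, 2260 and 1545 of all 8858 genes were called in either direction. Slc40a1, the iron exporter ferroportin, fell by 1.38, 1.10 and 1.09, from 17.2 ± 5.02 FPKM under PBS to 6.04 ± 2.02 after LPS. Tfrc, the transferrin receptor that imports iron, fell by 1.04, 0.83 and 0.75, from 17.0 ± 2.96 FPKM to 7.94 ± 2.71 after LPS. Both remained called lower under rescaling after all 3 agonists.

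The 5 genes with the pattern most like that of Irg1 over the 20 libraries were Tnfrsf1b, Il2ra, Adamts4, Socs3 and Inhba. Likeness was the root mean square distance of log2(FPKM + 1) values after the PBS mean of each gene was taken off. These distances were 0.647, 0.649, 0.698, 0.714 and 0.715, against a median of 3.22 over the 8857 other genes tested. A gene that does not change lies far from Irg1 through the rise of Irg1 alone. That median is therefore no yardstick for likeness among genes that rise. Tnfrsf1b, a receptor for tumour necrosis factor, went from 5.91 FPKM under PBS to 74.7, 82.8 and 69.8 after LPS, PAM3CSK4 and zymosan. Socs3, an inhibitor of cytokine signalling, went from 3.18 to 43.0, 51.1 and 54.2 FPKM. Il2ra (interleukin-2 receptor alpha), Adamts4 (a matrix protease) and Inhba (an activin subunit) averaged under 0.2 FPKM in the PBS group and 10.3 to 24.8 FPKM after the agonists. They passed the filter of 1 FPKM in 4 or more libraries only through the agonist groups. At such low PBS levels log2(FPKM + 1) understates the change, so the likeness of these genes to Irg1 depends on that scale. The points share libraries and the PBS group, so this likeness is a description.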

How the data were processed

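The authors deposited 1 table of FPKM per gene symbol for 20 RNA-seq libraries, made by Smart-Seq2 and Nextera XT per the labels' protocols. Per the submitters' processing notes the tools were DESeq2, featureCounts 1.4.6, HISAT2 2.0.5.1 and Cufflinks 2.2.1, and the build was rn6, and neither roles nor order are given. The FPKM were used as deposited. Members, gene lists and tests were chosen with earlier results of these data known. Groups came from the sample titles and treatment labels. Relative depth was read from low FPKM values as multiples of a step. The members' values were whole multiples of their step within 0.05 in 20 of 20 libraries, where the step is 1 read for most members, with 3 steps per read for Cs, 6 for Fh and 2 for Aco1 and Idh2, whose values were whole reads in 17, 16, 19 and 19 of 20 libraries. Absolute read totals are unknown.

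limma 3.58.1 (R 4.3.3) was fitted to log2(FPKM + 1) over all 20 libraries with 5 group means and a mean-variance trend, for 8858 genes that reached 1 FPKM in 4 or more libraries, giving 7 two-sided contrasts with Benjamini-Hochberg adjustment in each. The fit was tested on simulated data with independent noise for each gene and library. The simulation held no deviation shared between genes like that of the set of 7, so it does not cover that feature. Alternatives were a pseudocount of 0.1, no filter, median-ratio rescaling, library weights, a replicate block, only the 2 groups compared, a term for the set of 7 libraries, only the 13 others, listed zeros as missing, and leaving out each library. Same-numbered libraries deviated together for PAM3CSK4 and PBS (correlations 0.375 to 0.741), zymosan and PBS (0.318 to 0.824) and zymosan and PAM3CSK4 (0.525 to 0.792). In each of these groups replicate 1 alone belongs to the set of 7, which can give such correlations without pairing. The labels state no pairing and the correlations cannot show it, so the block is only an alternative fit.

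All members are named, and 1 other enzyme of the cycle is counted but not reported here by its values. Of each other list, up to 4 genes are named. They have the largest absolute value of the mean log2 difference over the 3 agonists, among genes called in at least 1. Promoter windows are RefSeq GRCr8, and values were handled with Python 3.11.15 and pandas 2.3.3.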

Additional observations from a re-analysis of the deposited data

Results flagged for a closer look

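Of 45 groups of 4 libraries (9 members in 5 groups), 4 held a library far from the other 3, where chance alone gives about 1 group in 20. Cs read 76.2 FPKM in PBS library 1 and 94.5 to 96.9 in the other PBS libraries. Ogdh read 23.1 FPKM in PBS library 1 against 42.2 to 44.9, 9.55 FPKM in PAM3CSK4 library 1 against 31.8 to 32.9, and 16.3 FPKM in Zymosan library 1 against 34.6 to 37.1. All 4 values are the lowest of their group and come from the 7 libraries that stood apart. Those libraries were picked by their deviations in these same data, so this overlap is no separate evidence.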

How the results depend on the processing

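Irg1, Idh2 and Idh3a were called in all 29 alternatives of each agonist comparison with PBS, and no member was called in any of the 29 for morphine. After LPS, 3 members were called under rescaling and 8 with library weights, the replicate block or the library set term, with 2293 of 8858 genes called under rescaling and 4641, 4340 and 4458 under those 3. After PAM3CSK4, 7 were called with the library set term or in the 13 libraries, where 4513 and 4279 genes were called. The block is only a shared number, and LPS replicate 2 correlated at −0.186 with PBS replicate 2. For zymosan against LPS the block added 1 call (Cs, 0.42, adjusted p = 0.0309). The block changed no other call of a member beside those of Aco1, Ogdh and Fh after LPS and of Cs after PAM3CSK4. Without Aco1 and Idh1 in the sum, Irg1 after LPS was 44.7%.

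Signs turned for members that were not called, and the cause was not tested. Idh1 after LPS was 0.32 under rescaling, 0.16 with weights, 0.076 with the set term and 0.25 in the 13 libraries. Under rescaling, PAM3CSK4 gave 0.044 for Cs, 0.084 for Idh1 and 0.021 for Fh, and zymosan 0.11, 0.20 and 0.15. Morphine gave 0.12 (rescaling), 0.0038 (weights), 0.034 (set term) and 0.047 (13 libraries) for Cs, 0.10 for Mdh2 under rescaling, and 0.11, 0.054 and 0.028 for Aco1, Ogdh and Mdh2 in the 13 libraries. PAM3CSK4 against LPS gave −0.088 for Ogdh (set term) and −0.0043 for Mdh2 (rescaling). Zymosan against LPS gave −0.13, −0.17, −0.083 and −0.26 for Idh1 under rescaling, weights, set term and 13 libraries. Leaving out 1 library ranged from −0.29 to 0.18 for Idh1 after LPS, −0.16 to 0.14 for Idh1 and −0.14 to 0.021 for Fh after zymosan, and −0.24 to 0.48 for Irg1 and −0.14 to 0.056 for Cs after morphine. It ranged from −0.41 to 0.060 for Idh1, −0.014 to 0.26 for Idh3a and −0.017 to 0.63 for Ogdh in PAM3CSK4 against LPS. It ranged from −0.19 to 0.28 for Idh1 in zymosan against LPS, and from −0.10 to 0.44 for Aco1 and −0.13 to 0.55 for Ogdh in zymosan against PAM3CSK4.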
